A study of Mus musculus with 10 samples.

Results

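The genes described here are the metalloproteinase genes named *Adam*, *Adamts*, *Adamtsl* and *Mmp* and the genes of their inhibitors, *Timp*, in the cortical hem (CH) of embryos without functional Lmx1a. They were taken as every gene whose symbol starts with Adam and a digit, with Adamts, with Mmp and a digit, or with Timp and a digit. This gave 84 of 52227 genes, namely 33 *Adam*, 19 *Adamts*, 5 *Adamtsl*, 23 *Mmp* and 4 *Timp* genes. The CH is the signaling center at the medial edge of the developing cortex. It was cut out by laser capture microdissection from 5 wild-type and 5 *Lmx1a*-/- mouse embryos at e13.5, the sections of 1 embryo were pooled into 1 library, and RNA was sequenced. The *Lmx1a*-/- embryos were homozygous for the dreherJ (*drJ*) allele, a null point mutation whose transcript is still made, and no group received a treatment. The colony had a mixed C57Bl6, FVB and CD1 background, the study used both sexes, and the labels give no sex for these embryos.

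Library totals lay between 19145952 and 36462780 counts on genes. A level is given below as normalized CPM (counts scaled to a common library size), with the mean ± SD over 5 embryos, and a fold change is *Lmx1a*-/- relative to wild type on the log2 scale with its standard error (SE). Where 2 levels of a gene are given side by side, the wild-type level comes first. Genes that reached 10 counts in 3 or more libraries were tested, and a gene was called when the false discovery rate (FDR, Benjamini-Hochberg over 21664 genes) of edgeR's quasi-likelihood test was under 0.1. *Lmx1a* itself was detected in every library, at 71.2 ± 18.2 CPM in wild-type embryos against 114 ± 21 CPM in *Lmx1a*-/- embryos (log2 fold change 0.68, SE 0.17, FDR 0.0658). Since the allele is a point mutation, this level does not check the genotype labels. In 4 wild-type libraries *Xist* stood at 4400 to 5170 CPM with Y-linked transcripts at or below 0.0588 CPM, while wild-type embryo 1 and all 5 *Lmx1a*-/- embryos had *Xist* at or below 1.15 CPM, so outside embryo 1 the sex of the embryos and the genotype cannot be told apart.

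ADAM proteins are mostly membrane-anchored enzymes that cut the outer part of other membrane proteins, such as Notch receptors and growth factor precursors, off the cell surface. ADAMTS proteins are secreted, bind the extracellular matrix through thrombospondin repeats and cut matrix proteoglycans, procollagens and other matrix proteins, whereas ADAMTS-like proteins carry the same repeats without a protease domain. MMPs degrade matrix proteins and free signals from them, either as secreted or as membrane-bound enzymes, and TIMPs inhibit these enzymes. In the developing brain such enzymes remodel the matrix around migrating cells and vessels.

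All of the proteases of this kind that are active hold a zinc ion with the histidines of the metzincin zinc-binding motif, next to a catalytic glutamate. The codons of this motif were searched for in the longest coding transcript of each member. They were found in all 19 *Adamts* and all 23 *Mmp* genes and in 20 of 33 *Adam* genes. They were absent from all 5 *Adamtsl* and all 4 *Timp* genes, and from the 13 other *Adam* genes, *Adam11*, *Adam22* and *Adam23* included. A glycine codon that stands before the last histidine in every *Adam* and *Mmp* match was present in 13 of 19 *Adamts* genes and absent from 6, namely *Adamts1*, *Adamts4*, *Adamts8*, *Adamts9*, *Adamts15* and *Adamts20*. The stretches below are shown because they mark the catalytic center of the called proteases and, for comparison, of *Adam10*, the *Adam* gene with the highest level. Capitals mark the codons of the histidines and of the glutamate, and the sequences are those of spliced GENCODE M21 transcripts (GRCm38).
*Adamts1*: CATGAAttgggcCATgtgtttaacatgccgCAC
*Adamts5*: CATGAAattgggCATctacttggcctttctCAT
*Adamts3*: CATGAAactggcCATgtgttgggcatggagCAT
*Adamts6*: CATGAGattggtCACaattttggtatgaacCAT
*Mmp17*: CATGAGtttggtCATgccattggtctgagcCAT
*Adam10*: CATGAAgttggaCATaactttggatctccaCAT
The *Mmp17* stretch lies within exon 5 of 10 at chr5:129596597-129596629 on the plus strand. The stretches of the 4 *Adamts* genes each cross an exon junction, and that of *Adamts1* lies at chr16:85799191-85799545 on the minus strand with the intron included.

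Of the 84 members, 56 had enough counts to be tested. Of the others, 18 had no count in any library, which allows up to 0.0823 to 0.157 CPM at 3 counts per library. These were 10 *Adam* genes, among them *Adam24*, *Adam25* and *Adam34*, which are known from the testis, and 8 *Mmp* genes, among them *Mmp3*, *Mmp7*, *Mmp8* and *Mmp10*. A further 10, which were *Adam1b*, *Adam2*, *Adam3*, *Adam5*, *Adam7*, *Adam18*, *Adam28*, *Adam32*, *Mmp12* and *Mmp13*, had counts below the filter. All 19 *Adamts*, 5 *Adamtsl* and 4 *Timp* genes were tested, together with 15 *Adam* and 13 *Mmp* genes.

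In the *Lmx1a*-/- CH, 5 members fell, 2 rose and 49 did not pass the threshold. The genes that fell were *Adamts1*, *Adamts5*, *Adamts3*, *Adamtsl2* and *Adamtsl5*, and those that rose were *Adamts6* and *Mmp17*. Thus 12.5% of the tested members were called, beside 4.02% of all genes (870 of 21664). The share was 8.93% for lower calls, beside 2.29% of all genes, and 3.57% for higher calls, beside 1.72%. The paper had already named *Adamts1* as a CH marker that fell in these same libraries, so its call here is not an independent result. Outside these libraries, the paper lists *Adamts1* primers for qRT-PCR after *Lmx1a* knockdown in the CH of wild-type embryos. It reports that every target tested in this way fell, in embryos chosen for lacking electroporated cells in the choroid plexus. The same 7 members were also those whose 5 wild-type and 5 *Lmx1a*-/- values did not overlap, which was so for 4.44% of all genes (2.27% lower and 2.17% higher in *Lmx1a*-/- embryos). At an unadjusted p under 0.05 stood 13 of the 56 members (23.2%), beside 16.4% of all genes. The median log2 fold change of the 56 members was -0.065, beside -0.0049 for all genes, and 34 lay below and 22 above 0. In a bulk sample, fewer cells of a type and less RNA per cell cannot be told apart.

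**Figure D1:**
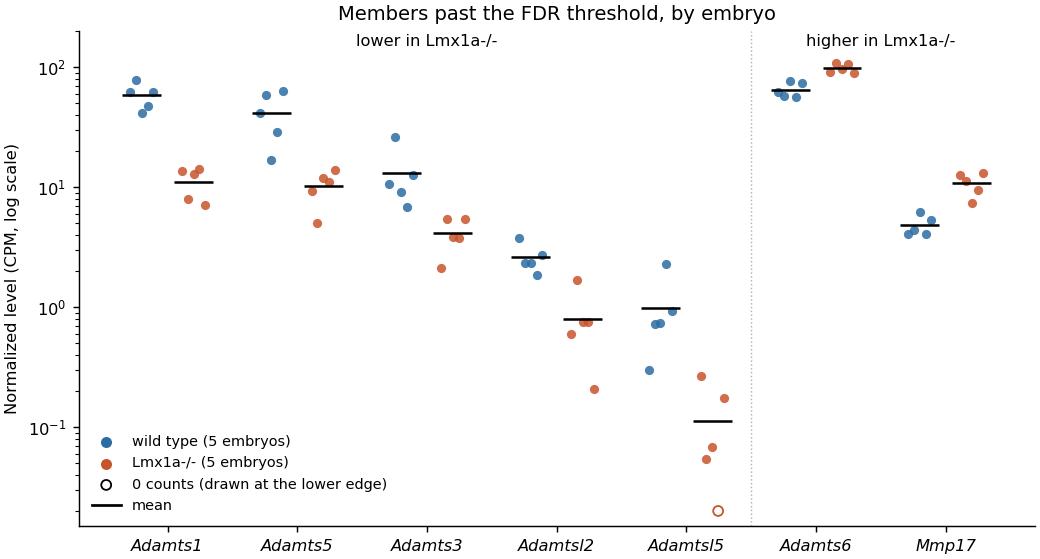
Normalized level (CPM, log axis) of the 7 called members in each of the 5 wild-type and 5 *Lmx1a*-/- embryos, with a line at each mean. The wild-type and *Lmx1a*-/- points of each gene are fully separated. *Adamts1* lies between 41.7 and 78.5 CPM in wild-type and between 7.06 and 14.2 CPM in *Lmx1a*-/- embryos, and 1 *Lmx1a*-/- embryo had no count of *Adamtsl5*.

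Among the secreted ADAMTS proteases, the hyalectanases, which cut aggrecan, versican and related proteoglycans, held the member with the smallest FDR. *Adamts1* (ENSMUSG00000022893, chr16:85793827-85803113, minus strand) codes for a matrix protease that cuts versican and aggrecan. Its levels were 62.7, 78.5, 41.7, 47.6 and 62.6 CPM in wild-type embryos 1 to 5 and at 13.6, 8.04, 12.9, 14.2 and 7.06 CPM in *Lmx1a*-/- embryos 1 to 5. The lowest wild-type embryo was thus well above the highest *Lmx1a*-/- embryo. The mean fell from 58.6 ± 14.4 to 11.2 ± 3.33 CPM, a 5.23-fold difference (log2 fold change -2.39, SE 0.22, FDR 0.000166). *Adamts5* (ENSMUSG00000022894, chr16:85856173-85901828, minus strand), which codes for the major aggrecan-cutting enzyme of mouse cartilage, stood at 41.5, 58.3, 16.9, 28.9 and 63.4 CPM in wild-type and at 9.28, 5.00, 12, 11.2 and 13.9 CPM in *Lmx1a*-/- embryos. Wild-type embryo 3 came close to the highest *Lmx1a*-/- embryo, and the other wild-type embryos were well above it. Its mean fell 4.05-fold, from 41.8 ± 19.5 to 10.3 ± 3.37 CPM (log2 fold change -2.02, SE 0.34, FDR 0.00759).

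The remaining 5 hyalectanase genes did not pass the threshold. Their log2 fold changes ran from -0.61 for *Adamts8* to 0.64 for *Adamts15* (SE 0.42 and 0.30), with 2 below and 3 above 0. *Adamts9*, which is also needed for cilia and versican turnover, had 18.3 CPM in wild-type embryos against 26.3 CPM in *Lmx1a*-/- embryos (log2 fold change 0.52, SE 0.27, FDR 0.362). *Adamts4*, an aggrecanase, was low at 2.13 and 2.36 CPM, and it lies on the chromosome of *Lmx1a*, 3401680 bases away.

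*Adamts1* and *Adamts5* are neighbours on chromosome 16, with 53059 bases between them. Of the 11 other tested genes within 1000000 bases of the pair, 0 were called by edgeR's quasi-likelihood test. This is near the 4.02% called among all genes, so it does not show that the fall is confined to the pair. The log2 fold changes of these 11 genes ran from -1.04 to 0.11 with a median of -0.20, and 6 lay below 0. *Atp5j* was lower without overlap between genotypes, at 80.5 against 70.3 CPM (FDR 0.193).

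The procollagen N-proteinases ADAMTS2, ADAMTS3 and ADAMTS14 remove the N-terminal propeptide of fibrillar procollagens. ADAMTS3 also activates the lymphatic growth factor VEGF-C and cuts reelin, the signal that Cajal-Retzius (CR) cells secrete. *Adamts3* stood at 10.7, 26.3, 9.15, 6.85 and 12.6 CPM in wild-type and at 2.13, 5.43, 3.88, 3.79 and 5.39 CPM in *Lmx1a*-/- embryos. The groups did not overlap, although the lowest wild-type embryo was only slightly above the highest *Lmx1a*-/- embryos. The mean fell 3.19-fold, from 13.1 ± 7.68 to 4.13 ± 1.37 CPM (log2 fold change -1.67, SE 0.35, FDR 0.0274). The size of this fall depended on wild-type embryo 2, at 26.3 CPM. Without that embryo the log2 fold change was -1.26 (SE 0.28, FDR 0.0498). *Adamts2* (log2 fold change -0.82, SE 0.44) and *Adamts14* (-0.42, SE 0.80) had means below 3 CPM in both genotypes and did not pass.

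*Adamts6*, whose product cuts matrix and cell-surface proteins and is needed for heart development, was the only *Adamts* gene called higher. It stood at 62.2, 57.1, 76.3, 56.2 and 73.4 CPM in wild-type and at 90.7, 109, 97.3, 106 and 88.9 CPM in *Lmx1a*-/- embryos. Each *Lmx1a*-/- embryo was above each wild-type embryo. The mean rose 1.51-fold, from 65 ± 9.27 to 98.4 ± 8.90 CPM (log2 fold change 0.60, SE 0.10, FDR 0.00892). Its closest relative *Adamts10*, which acts on fibrillin microfibrils, had 26.8 and 28.5 CPM (log2 fold change 0.09, SE 0.10, FDR 0.696). *Adamts7*, which cuts cartilage oligomeric matrix protein and ranks after *Adamts1* and *Adamts6* by level per length in wild-type embryos, had 31.7 ± 4.79 and 33.9 ± 6.40 CPM and a log2 fold change of 0.10 (SE 0.14). *Adamts18* varied widely among wild-type embryos, with 3.06, 6.63, 13.7, 26.3 and 1.55 CPM, against 1.63 to 4.56 CPM in *Lmx1a*-/- embryos. The genotypes overlapped, and its log2 fold change of -1.45 (SE 0.60, FDR 0.242) did not pass.

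**Figure D2:**
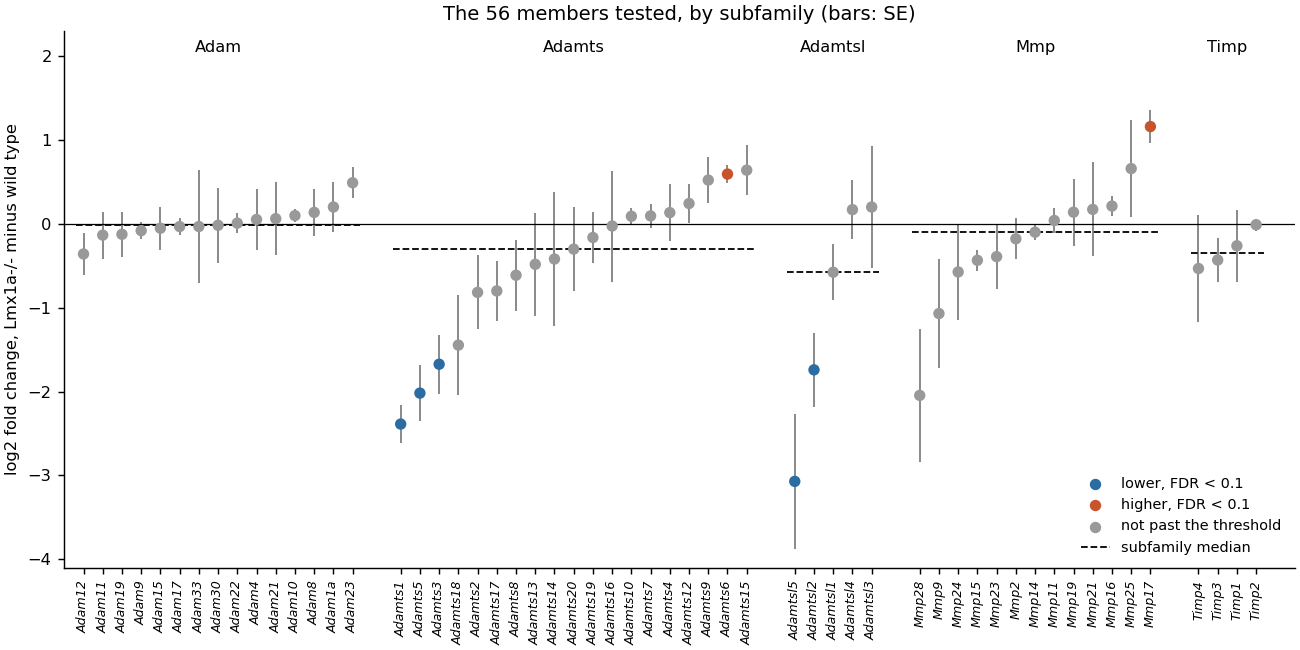
Log2 fold change (*Lmx1a*-/- minus wild type) of the 56 tested members, ordered within each subfamily, with bars for the SE and a dashed line at each subfamily median. Of the 7 called genes, 6 are in the *Adamts* and *Adamtsl* subfamilies, the lowest value (-3.07) is that of *Adamtsl5*, *Mmp28* is at -2.05 without a call, and the *Adam* values stay between -0.36 and 0.49.

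Levels of different genes were compared per kb of merged exon length. On that scale *Adamts1* ranked first of the 19 *Adamts* genes in wild-type embryos, at 11.1 CPM per kb, before *Adamts6* at 8.34, *Adamts7* at 5.05 and *Adamts5* at 3.87 CPM per kb. In *Lmx1a*-/- embryos *Adamts6* came first at 12.6 CPM per kb, followed by *Adamts7* at 5.40, while *Adamts1* ranked 4th at 2.10 and *Adamts5* ranked 8th at 0.951 CPM per kb. Over all 84 members, *Adamts1* went from rank 4, behind *Adam10*, *Timp2* and *Mmp14*, to rank 15, and those 3 genes kept ranks 1 to 3.

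The make-up of the *Adamts* transcripts therefore differed. *Adamts1* made up 25.0 ± 4.94% of the summed level per kb of the 19 genes in wild-type and 6.17 ± 1.80% in *Lmx1a*-/- embryos. *Adamts1* and *Adamts5* together made up 33.7 ± 8.25% and 8.96 ± 2.04%, with a lowest wild-type share of 21.9% and a highest *Lmx1a*-/- share of 11.6%. The share of *Adamts6* was 19 ± 2.79% in wild-type and 37.3 ± 5.39% in *Lmx1a*-/- embryos. The sum itself was 43.9 ± 2.80 CPM per kb in wild-type and 34.0 ± 2.81 CPM per kb in *Lmx1a*-/- embryos, and the genotypes did not overlap (40.4 to 47.7 against 31.9 to 38.7). These shares follow from the levels already tested and were not tested again.

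**Figure D3:**
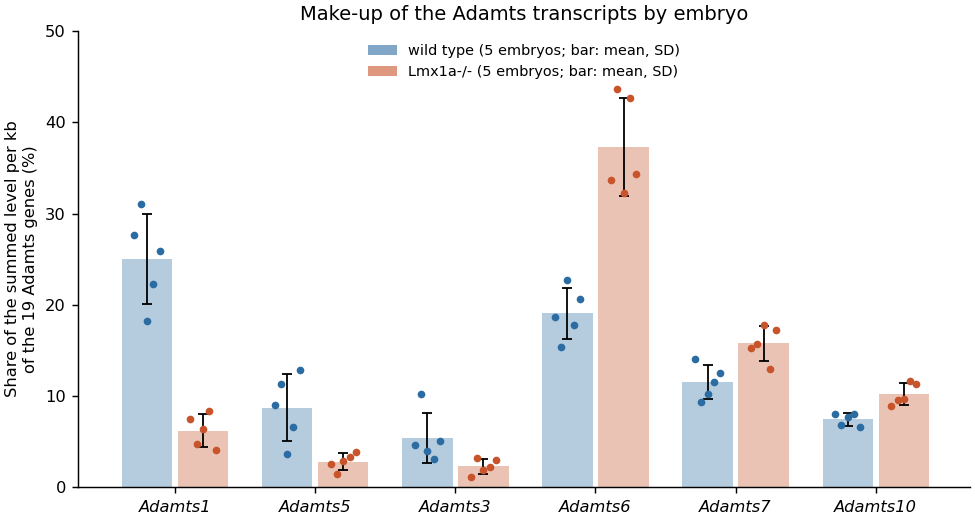
Share (%) of 6 genes in the summed CPM per kb of the 19 *Adamts* genes, with points for single embryos, bars for the mean and error bars for the SD over 5 embryos. *Adamts1* has a mean share of 25.0% in wild-type and 6.17% in *Lmx1a*-/- embryos, and *Adamts6* has 19% and 37.3%.

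ADAMTS-like proteins bind fibrillin microfibrils and other matrix proteins but do not cut them. *Adamtsl2*, whose human counterpart is mutated in geleophysic dysplasia and which limits TGF-β signaling, stood at 3.81, 2.35, 2.35, 1.87 and 2.73 CPM in wild-type and at 0.599, 1.68, 0.749, 0.748 and 0.209 CPM in *Lmx1a*-/- embryos. The highest *Lmx1a*-/- embryo was just below the lowest wild-type embryo. The mean fell 3.34-fold, from 2.62 ± 0.731 to 0.798 ± 0.543 CPM (log2 fold change -1.74, SE 0.44, FDR 0.0648). *Adamtsl5* was near the limit of detection, with 8, 16, 25, 44 and 25 counts in wild-type and 8, 1, 2, 0 and 5 counts in *Lmx1a*-/- embryos. It fell from 0.992 ± 0.757 to 0.112 ± 0.106 CPM (log2 fold change -3.07, SE 0.80, FDR 0.0702). Embryo 1 of each genotype had 8 counts, and the groups were separated there only by the scaling of the counts, TMM factors included (0.299 and 0.266 CPM). These 2 calls were the least stable: *Adamtsl2* lost its call when wild-type embryo 1, 2 or 5 or *Lmx1a*-/- embryo 1 or 4 was left out (FDR 0.101 to 0.146), and *Adamtsl5* without wild-type embryo 2 or 4 or *Lmx1a*-/- embryo 2, 3, 4 or 5 (FDR 0.105 to 0.159). The other members of the group, *Adamtsl1* (-0.58, SE 0.33), *Adamtsl3* (0.20, SE 0.72) and *Adamtsl4* (0.17, SE 0.35), did not pass.

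**Figure D4:**
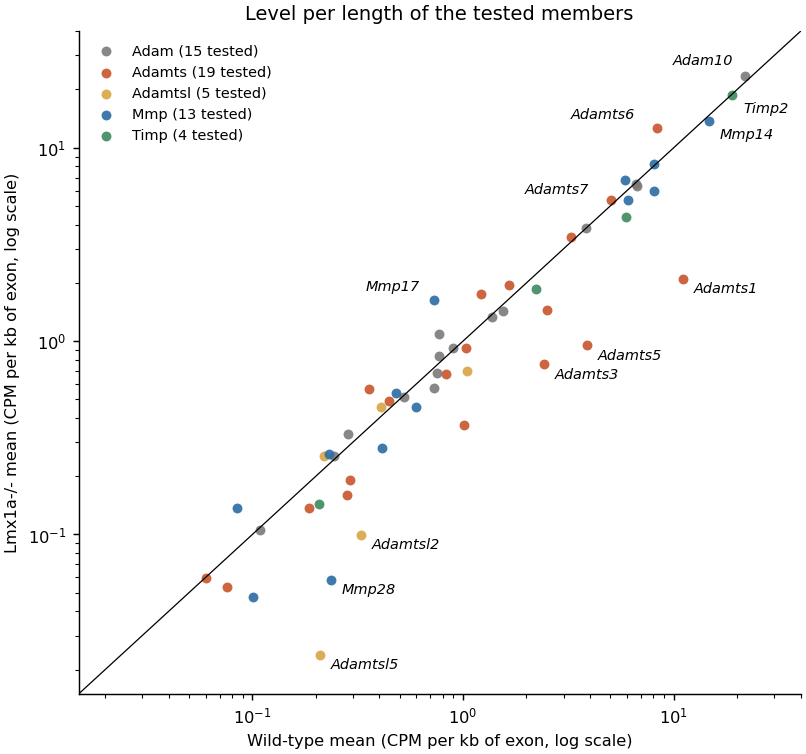
Mean level per kb of merged exons in wild-type (horizontal, log axis) and *Lmx1a*-/- embryos (vertical, log axis) of the 56 tested members, with a line of equal levels. *Adam10*, *Timp2* and *Mmp14* lie on the line at the upper end, *Adamts1*, *Adamts5* and *Adamts3* lie below it, and *Adamts6* and *Mmp17* lie above it.

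Of the 13 tested *Mmp* genes, 1 rose and 0 fell, beside 1.72% higher and 2.29% lower calls among all genes. Their median log2 fold change was -0.098, and 3 had an unadjusted p under 0.05 (16.4% of all genes did). The membrane-type MMPs, which act at the cell surface, made up most of the *Mmp* level, at 189 ± 10.9 CPM in wild-type embryos against 186 ± 11 CPM in *Lmx1a*-/- embryos. *Mmp17* codes for MT4-MMP, which is held in the membrane by a GPI anchor. It stood at 4.07, 4.37, 6.21, 4.05 and 5.36 CPM in wild-type and at 12.6, 11.3, 7.43, 9.50 and 13.1 CPM in *Lmx1a*-/- embryos. Wild-type embryo 3 and *Lmx1a*-/- embryo 3 were the nearest to each other, and the groups did not overlap. The mean rose 2.24-fold, from 4.81 ± 0.944 to 10.8 ± 2.36 CPM (log2 fold change 1.16, SE 0.20, FDR 0.00892).

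*Mmp14* codes for MT1-MMP, which activates MMP2 and degrades fibrillar collagen, and it had the highest level per length of the *Mmp* genes. It stood at 87.3 ± 5.11 and 81.6 ± 11.3 CPM (log2 fold change -0.10, SE 0.10, FDR 0.663), and *Mmp16*, for MT3-MMP, stood at 50.9 ± 9.53 and 59.1 ± 6.76 CPM (0.21, SE 0.12, FDR 0.426). *Mmp15*, for MT2-MMP, was just outside the threshold. Its levels were 51.7, 49.2, 32.2, 37.6 and 46.9 CPM in wild-type and 29.0, 33.5, 33.8, 34.9 and 29.98 CPM in *Lmx1a*-/- embryos (log2 fold change -0.43, SE 0.13, FDR 0.108). Wild-type embryo 3 lay within the *Lmx1a*-/- range, and without that embryo the FDR was 0.0258. It was 0.0973 without wild-type embryo 4 and 0.116 to 0.224 when any of the other embryos was left out, and with the choroid plexus marker level as a covariate the log2 fold change was -0.04 (FDR 0.975). Of the gelatinases, *Mmp2* stood at 20.4 and 18 CPM and *Mmp9* at 0.355 and 0.168 CPM, and neither passed. The stromelysin-3 gene *Mmp11* stood at 22.3 ± 4.45 and 22.9 ± 3.95 CPM (log2 fold change 0.04, SE 0.15). *Mmp28*, for the secreted enzyme epilysin, ranged from 0.180 to 1.79 CPM in wild-type and from 0 to 0.380 CPM in *Lmx1a*-/- embryos, with a log2 fold change of -2.05 (SE 0.79, FDR 0.211), and it shares 12% of its exon bases with *1700020L24Rik* on the opposite strand. Of the collagenase genes, 3 of 4 had no count and *Mmp13* was below the filter.

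None of the 15 tested *Adam* genes was called by edgeR's quasi-likelihood test, which is near the 4.02% called among all genes. Among these *Adam* genes, 1 had an unadjusted p under 0.05, beside 16.4% of all genes. Their median log2 fold change was -0.015. *Adam10*, the gene of the main Notch sheddase, had the highest level per length of all 84 members. It stood at 107 ± 7.41 CPM in wild-type embryos against 115 ± 7.30 CPM in *Lmx1a*-/- embryos (log2 fold change 0.10, SE 0.07, FDR 0.552), with overlapping ranges. *Adam17*, for the TNF-converting enzyme, stood at 47.5 ± 4.18 and 46.4 ± 5.81 CPM (log2 fold change -0.03, SE 0.10), and *Adam9* at 27.5 ± 2.46 and 26.1 ± 1.98 CPM (-0.08, SE 0.10). *Adam12*, which is expressed in mesenchyme and cuts growth factor precursors, stood at 7.70 ± 2.80 and 6.01 ± 1.39 CPM (-0.36, SE 0.25).

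*Adam11*, *Adam22* and *Adam23* code for neural ADAM proteins that lack the catalytic motif, of which ADAM22 and ADAM23 are receptors of the secreted protein LGI1. *Adam23* stood at 11, 17.3, 17.1, 9.55 and 14.1 CPM in wild-type and at 21.8, 17.3, 17.6, 16.0 and 24.6 CPM in *Lmx1a*-/- embryos. Its log2 fold change of 0.49 (SE 0.19, FDR 0.199) did not pass. *Adam22* stood at 55.0 and 55.4 CPM (0.01, SE 0.12). The 4 tested *Adam* genes of the group known mostly from the testis, *Adam1a* among them at 2.14 and 2.47 CPM, had log2 fold changes between -0.015 and 0.20. Of the exon bases of *Adam1a*, 63.7% are also exonic in *Gm42878* and 24% in *Mapkapk5*, on the same strand, so its level is uncertain.

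The inhibitors did not pass the threshold either. *Timp2*, whose product inhibits most MMPs and also takes part in the activation of MMP2 by MT1-MMP, stood at 73.7 ± 4.77 and 73.2 ± 3.63 CPM (log2 fold change -0.0089, SE 0.07, FDR 0.970), a value whose sign turned under upper quartile scaling (0.0075) and under scaling by library size alone (0.00049). *Timp3*, whose product stays bound to the matrix and also inhibits ADAM17 and the aggrecanases ADAMTS4 and ADAMTS5, stood at 55.6, 38.1, 39.7, 74.6 and 32.4 CPM in wild-type and at 32.9, 32.5, 62, 27.5 and 23.3 CPM in *Lmx1a*-/- embryos. The ranges overlapped, and its log2 fold change was -0.43 (SE 0.27, FDR 0.465). A share of 21.3% of its exon bases is also exonic in *Syn3*, the gene in whose intron it lies. *Timp1* (1.97 and 1.66 CPM, log2 fold change -0.26, SE 0.43) and *Timp4* (1.22 and 0.845 CPM, -0.53, SE 0.64) were low.

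Genes that regulate these proteases, and genes of their substrates, were taken from lists written for this comparison. Of 27 tested regulators, 1 fell and 0 rose. The gene that fell was *Spock1*, for the matrix proteoglycan testican-1, which inhibits MT-MMPs, and it stood at 3.73 to 10.9 CPM in wild-type and 1.43 to 3.90 CPM in *Lmx1a*-/- embryos (log2 fold change -1.26, FDR 0.0752). The paper had already named *Spock1*, like *Reln*, among CR cell genes that fell in these same libraries, so its call is not independent. *Thbs1*, for thrombospondin-1 (log2 fold change 0.47, FDR 0.125), and *Furin*, for the convertase that activates many of these enzymes (-0.42, FDR 0.210), did not pass. The called share of 1 in 27 was near that of all genes. Of 25 tested matrix substrate genes, 8 fell and 0 rose, beside 2.29% lower and 1.72% higher calls among all genes, with a median log2 fold change of -0.43. They were *Reln*, the proteoglycan genes *Dcn* and *Bgn*, and the basement membrane genes *Col4a1*, *Col4a2*, *Lama1*, *Lamb1* and *Lamc1*. *Reln* is also in the list of CR cell genes below, and *Dcn* in that of mesenchyme and meninges genes, so these counts share genes. *Lamc1*, for the laminin γ1 chain, stood at 154 to 210 CPM in wild-type and at 108 to 137 CPM in *Lmx1a*-/- embryos (log2 fold change -0.55). *Lamb1* (-0.80) and *Col4a1* (-0.97, FDR 0.0253) likewise fell. The hyalectan genes, which code for the large proteoglycans that ADAMTS1 and ADAMTS5 cut, were not among the called genes: *Vcan* ranged from 379 to 1212 CPM in wild-type and from 407 to 685 CPM in *Lmx1a*-/- embryos. Of 25 tested genes of proteins shed by ADAMs, 0 were called by edgeR's quasi-likelihood test, near the 4.02% called among all genes. Among these genes, 7 had an unadjusted p under 0.05, beside 16.4% of all genes. The smallest p values were those of *Ptprz1* (log2 fold change 0.85, FDR 0.104), *Jag2* (-1.24, FDR 0.136) and *Cdh2* (0.24).

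Some lists of markers of neighbouring tissue held called genes, and others held none. Among all genes, 2.29% were called lower, 1.72% were called higher and 16.4% had an unadjusted p under 0.05 by edgeR's quasi-likelihood test. Of 12 tested choroid plexus epithelium genes, 4 fell and 0 rose, and the sum over the 14 genes of the list was 144 to 501 CPM in wild-type (median 437) and 159 to 238 CPM in *Lmx1a*-/- embryos. *Ttr*, a defining gene, was at a mean of 78.3 and 7.23 CPM. Of 13 mesenchyme and meninges genes, 3 fell (sums of 382 to 983 and 300.0 to 565 CPM), and of 12 endothelial, 8 pericyte and 10 microglial genes 0 were called, with 1, 2 and 1 at an unadjusted p under 0.05. The endothelial sums were 28.3 to 105 and 27.9 to 73.4 CPM. Of 8 tested CR cell genes, 4 fell and 1 rose, and the sums did not overlap (324 to 528 and 220 to 318 CPM). Of 6 cortical neuroepithelium genes, 1 rose (sums of 345 to 691 and 635 to 854 CPM). The list of 12 genes of the CH itself held 4 lower calls and 1 higher call, that of *Lmx1a*. Its median log2 fold change was -0.39, and its sums overlapped (2387 to 4498 and 3071 to 4132 CPM). No gene of the list of 8 neuron genes was called.

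The members that fell were set beside these markers. The choroid plexus level, as the mean of log2(CPM + 0.5) over the 14 genes, was 3.03 to 3.30 in wild-type embryos 1, 2, 4 and 5, 2.19 in wild-type embryo 3 and 1.80 to 2.39 in *Lmx1a*-/- embryos. Wild-type embryo 3, which lay within the *Lmx1a*-/- range of this level, had 41.7 CPM of *Adamts1*, above the highest *Lmx1a*-/- embryo at 14.2 CPM, and 16.9 CPM of *Adamts5*, beside 13.9 CPM. With this level as a covariate, *Adamts1* remained called (log2 fold change -1.75, SE 0.26, FDR 0.0161), whereas *Adamts5* had a log2 fold change of -0.51 (SE 0.27, FDR 0.670). *Adamts3* (-1.11, FDR 0.629), *Adamts6* (0.39, FDR 0.547), *Mmp17* (0.76, FDR 0.563), *Adamtsl2* (-2.11, FDR 0.469) and *Adamtsl5* (-3.02, FDR 0.542) did not pass with it, and the correlation of the covariate with genotype was -0.795. The part of mesenchymal, endothelial and CR cells in these results was not tested.

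Wild-type embryo 1, which had Y-linked transcripts as the *Lmx1a*-/- embryos did, had 62.7 CPM of *Adamts1*, 41.5 CPM of *Adamts5* and 10.7 CPM of *Adamts3*, each above all 5 *Lmx1a*-/- embryos. The log2 fold changes of the *Lmx1a*-/- embryos relative to this embryo were -2.49 for *Adamts1*, -2.02 for *Adamts5* and -1.39 for *Adamts3*. They were 0.65 for *Adamts6*, 1.4 for *Mmp17* and -2.28 for *Adamtsl2*. With 1 wild-type library there is no wild-type spread, so these are values of that embryo and no test of genotype apart from sex. With the *Xist* level as a covariate in all 10 libraries, *Adamts1* remained called (log2 fold change -2.47, SE 0.33, FDR 0.0260). *Adamts5* (FDR 0.239), *Adamts3* (FDR 0.468), *Adamts6* (FDR 0.330), *Mmp17* (FDR 0.276), *Adamtsl2* (FDR 0.241) and *Adamtsl5* (FDR 0.788) did not pass with it, and the correlation of this covariate with genotype was -0.825.

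**Figure D5:**
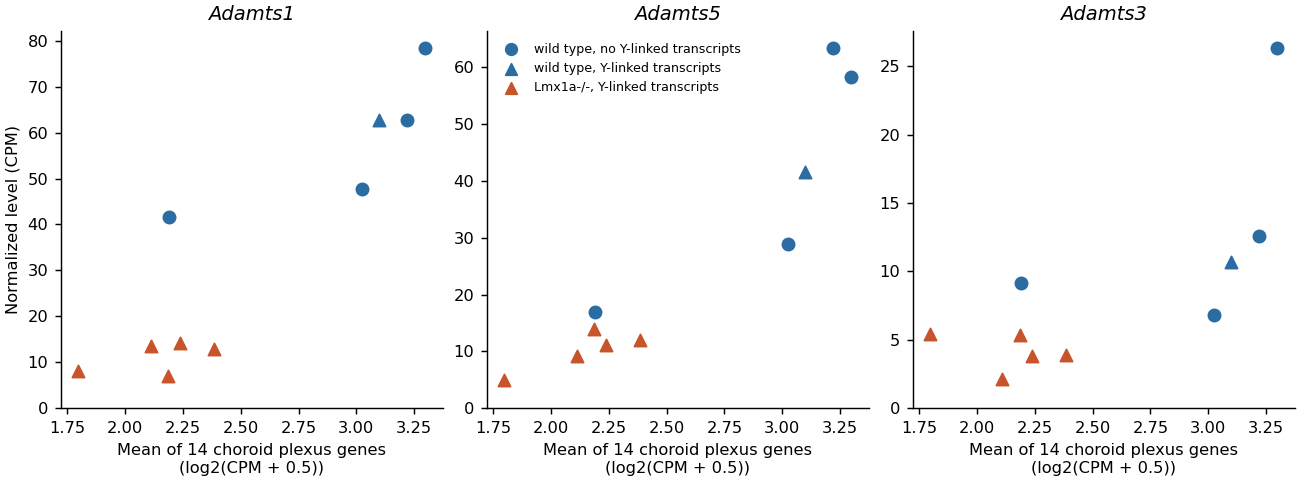
Level (CPM) of *Adamts1*, *Adamts5* and *Adamts3* in each embryo against the mean level of 14 choroid plexus genes (log2(CPM + 0.5)), with triangles for embryos with Y-linked transcripts and circles for those without. *Adamts1* is higher in every wild-type embryo than in the *Lmx1a*-/- embryos, also at a choroid plexus level of 2.19, while at that level *Adamts5* is 16.9 CPM in the wild-type embryo, close to 13.9 CPM in an *Lmx1a*-/- embryo.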

How the data were processed

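Laser-captured CH was profiled by RNA-seq in 10 embryos. After trimming by Trimmomatic, the authors mapped read pairs to GRCm38 by STAR 2.7.1a and used HTSeq 0.11.2 to count reads for each Ensembl gene, and they deposited raw counts. Whether HTSeq used strand is not given in the sources used here, so overlapping genes are uncertain. The 281 rows that repeat another row were dropped. Groups and embryo numbers came from the labels.

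With R 4.3.3 and edgeR 4.0.16, all 10 libraries were scaled by TMM and compared with the quasi-likelihood test without a covariate, using genes that reached 10 counts in 3 or more libraries. The SE is the size of the log2 fold change divided by the square root of F. P values weigh the difference between genotypes against the spread between embryos, which was estimated partly from other genes. Exon lengths, positions and coding sequences came from GENCODE M21, and overlap only approximately with the annotation that was counted.

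The members and lists were chosen with earlier results of these data known. Named were all called members, the 5 members of each subfamily with the smallest p, the 3 with the highest wild-type level per length, all *Timp* genes and up to 3 genes per regulator or substrate list. Further members were named after their values were seen. Alternatives were other tests (with DESeq2 1.42.0 among them), scalings, filters, thresholds, covariates, a block for the embryo number and leaving out each embryo. The fits were tested on simulated data.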

Additional observations from a re-analysis of the deposited data

Results flagged for a closer look

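In 4 of 56 groups of 5 embryos examined among the 28 named members, 1 embryo stood far from the other 4 by Dixon's criterion, and chance alone sets apart about 1 in 20 such groups. *Adam10* was 102 CPM in *Lmx1a*-/- embryo 5, below the 116 to 121 CPM of the others. *Adam1a* was 3.97 CPM in *Lmx1a*-/- embryo 2, above 1.91 to 2.22 CPM in the others. *Adamtsl3* was 6.03 CPM in wild-type embryo 3, above 0.185 to 0.830 CPM in the others, which leaves its fold change undetermined in direction. *Timp3* was 62 CPM in *Lmx1a*-/- embryo 3, above 23.3 to 33 CPM in the others. None of these genes was called in the comparison of genotypes by edgeR's quasi-likelihood test.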

How the results depend on the processing

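*Adamts1* kept its call and direction under all 16 alternatives (log2 fold change -2.49 to -1.75) and in all 10 fits that left out 1 embryo (-2.49 to -2.25). *Adamts5*, *Adamts3*, *Adamts6* and *Mmp17* kept their calls in all of these 10 fits, and lost them under 2, 3, 3 and 3 of the 16 alternatives, the *Xist* and choroid plexus covariates and, except for *Adamts5*, the libraries with Y-linked transcripts, of which only 1 is wild-type. The count of lower members was 3 with the replicate block, 1 with *Xist* and 1 with the choroid plexus level as covariate, 2 among libraries with Y-linked transcripts and 3 at an FDR under 0.05, and 3 to 6 with 1 embryo left out, the lowest without wild-type embryo 2 or *Lmx1a*-/- embryo 4. The count of higher members was 0 with *Xist*, 0 with the choroid plexus level and 0 among libraries with Y-linked transcripts, and 2 to 2 with 1 embryo left out. The correlation with genotype was -0.825 for the *Xist* covariate and -0.795 for the choroid plexus covariate. The numbers did not pair the embryos (correlations of -0.099 to 0.013, 0 of 5 best with their own number).

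Of all genes, 497 were lower and 373 higher. Lower calls were 805 by the likelihood ratio test, 772 by the exact test, 976 by DESeq2, 27 with *Xist*, 21 with the choroid plexus level, 86 among libraries with Y-linked transcripts, 251 at an FDR under 0.05 and 261 to 604 with 1 embryo left out. Higher calls were 790 by DESeq2, 248 with the replicate block, 4 with *Xist*, 28 with the choroid plexus level, 44 among libraries with Y-linked transcripts, 197 at an FDR under 0.05 and 190 to 455 with 1 embryo left out. The lowest of both ranges came without *Lmx1a*-/- embryo 4, and counts moved over 1.5-fold also without wild-type embryo 1 (291 and 213), wild-type embryo 2 (315 and 236), *Lmx1a*-/- embryo 2 (328 lower) and *Lmx1a*-/- embryo 5 (308 and 238). The cause was not tested.

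Some uncalled members changed sign. With *Xist* the log2 fold change was 0.0074 for *Adam17*, 0.40 for *Adamts18*, -0.14 for *Adamts7* and 0.019 for *Timp2*. With the choroid plexus level it was 0.20 for *Adam17*, -0.29 for *Adam1a*, -1.48 for *Adamtsl3* and -0.18 for *Mmp16*. Among libraries with Y-linked transcripts it was 0.29 for *Adamts18*, -0.16 for *Adamts7* and 0.0085 for *Timp2*. It was 0.0075 for *Timp2* under upper quartile scaling, 0.00049 with library size only, and -0.038 for *Adamtsl3* with the newer edgeR dispersion method, an alternative chosen, like keeping repeated rows, after seeing the data. With 1 embryo left out, values ranged from -0.11 to 0.00038 for *Adam17*, -0.030 to 0.31 for *Adam1a*, -0.013 to 0.18 for *Adamts7*, -0.17 to 1.72 for *Adamtsl3*, -0.034 to 0.16 for *Mmp11* and -0.045 to 0.017 for *Timp2*. *Mmp15* passed under 6 of 16 alternatives, DESeq2 among them (FDR 0.0362), and not under the other 10, the choroid plexus covariate among them (FDR 0.975). Below about 1 CPM, as for *Adamtsl5* or *Mmp28*, few counts limit what can be seen.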
